A study of Mus musculus with 4 samples.

Results

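The 10 immediate early genes examined in these retinal cells were Fos, Fosb and Fosl2 of the Fos family, Jun, Junb and Jund of the Jun family, the zinc finger genes Egr1 and Egr3, Atf3, and Ier2. They were chosen by name, as AP-1 and Egr genes known to answer to neural activity, growth signals and tissue dissociation. The rule uses no measured value, but the list was drawn up with earlier results of these data known. All 10 were found among the 21828 genes analyzed, each on a single gene line. The cells came from mouse retinas in which destabilized EGFP is driven by a fragment of the Hes1 promoter, so that EGFP reports the activity of this fragment in a cell. Retinas were taken at postnatal day 1 (P1) and day 4 (P4), and no treatment was applied. The labels give the strain as FVB/N, whereas the study's methods name ICR mice beside the transgenic line. Every group shares the transgene, the digestion with trypsin and the cell sorter, and the labels set the groups apart by EGFP signal and age alone. EGFP-positive cells (pHes1_EPCs) and EGFP-negative cells (pHes1_ENCs) gave 1 RNA-seq library for each age, 4 libraries in all, and the number of animals behind a library is not given in the sources used here. With 1 library in each group there are no replicates, so no test between groups was possible and every difference below describes a pair of libraries.

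Immediate early genes are transcribed within minutes of a stimulus without the need for new protein, and most of their mRNAs are short-lived. Many of them are switched on through serum response factor and its ETS partners at CArG boxes in the promoter, and through CREB-type factors at cAMP response elements. Most of their products are themselves transcription factors: Fos and Jun proteins pair through leucine zippers to form AP-1, and Egr proteins bind GC-rich sites. In the retina these genes are known to respond to light, injury and growth factors, in neurons and in Müller glia. Digestion of tissue into single cells is itself a known stimulus for them. No library of undissociated retina was analyzed here, so mRNA present in the living retina and mRNA made during dissociation and sorting cannot be told apart.

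Of the 10 genes, 7 have a promoter entry in the RefSeq table used here (build GRCm38.p6), namely Fos, Fosb, Fosl2, Jun, Junb, Jund and Atf3, and Egr1, Egr3 and Ier2 were not searched. For these 7 genes the 500 bases before the start of the gene line were read from NCBI37/mm9, the build of the expression tables. Both strands were searched for a CArG box, the cAMP response element variant TGACNTCA, the pattern TGANTCA and the Egr motif GCGNGGGCG. TGANTCA is looser than the AP-1 motif TGA(C/G)TCA, since any base may stand at N. None of the patterns searched contains another. A CArG box was present in 2 of the 7, Fos and Fosb, and in 2.53% of 20991 promoters of the same length. TGACNTCA was found in Jun only and in 10.5% of all promoters, and TGANTCA in Fos only and in 11.9%. The Fos match reads TGAATCA, so it meets the looser pattern and not the AP-1 motif itself. GCGNGGGCG was found in Fosb, Fosl2 and Jun and in 8.73% of all promoters. No match was found in these windows of Junb, Jund and Atf3. The 4 stretches of 30 bases below are shown because they hold the motifs through which signals reach such promoters, in the 3 members (Fos, Fosb and Jun) where a CArG box or the cAMP response element variant was found, and an Egr motif of Fosb for comparison. They are written 5′ to 3′ on the strand of the gene, and the capitals mark the motif.
Fos CArG box: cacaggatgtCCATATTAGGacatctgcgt
Fosb CArG box: tggccgagctCCTTATATGGctaattgcgt
Jun TGACNTCA: aagcctcggggTGACATCAtgggctatttt
Fosb GCGNGGGCG: tgacgcaagcGCGGGGGCGggtcccggagg
The Fos stretch lies at chr12:86814521-86814550 on the plus strand, with the CArG box from base -320 to base -311 relative to the start of the gene line, and the RefSeq start of Fos lies 11 bases further upstream. The Fosb stretches lie on the minus strand at chr7:19895647-19895676, with the CArG box from -272 to -263, and at chr7:19895425-19895454, with the Egr motif from -50 to -42. The Jun stretch lies at chr4:94718940-94718969 on the minus strand, with the motif from -45 to -38. All coordinates in the text are those of NCBI37/mm9. A match of letters describes the sequence and does not show that a factor was bound there.

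Levels are given as FPKM, the fragments of a gene scaled by transcript length and by library size, so that levels of different genes can be set side by side within a library. Jun, Jund and Ier2 were the abundant members, with 24.8 to 100.03 FPKM in every library, and Jun and Jund together made up 72.6%, 72.9%, 73.6% and 61.8% of the summed FPKM of the 10 genes in P1 pHes1_ENC, P1 pHes1_EPC, P4 pHes1_ENC and P4 pHes1_EPC. Fos, Egr1 and Junb were intermediate, between 1.35 and 31.9 FPKM. Fosb stayed between 0.285 and 1.52 FPKM, and Fosl2, Atf3 and Egr3 did not exceed 0.421 FPKM in any library. Cufflinks, the program that made these tables, gives a 95% interval with each FPKM. It covers counting error only, without the spread between animals or sorts, and in 12 of the 40 values of these genes the FPKM itself lies outside its interval. From the width of the intervals, Fos rested on about 115 reads in P1 pHes1_ENC and 857 in P4 pHes1_EPC, and Atf3 on about 6 to 22 reads.

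**Figure D1:**
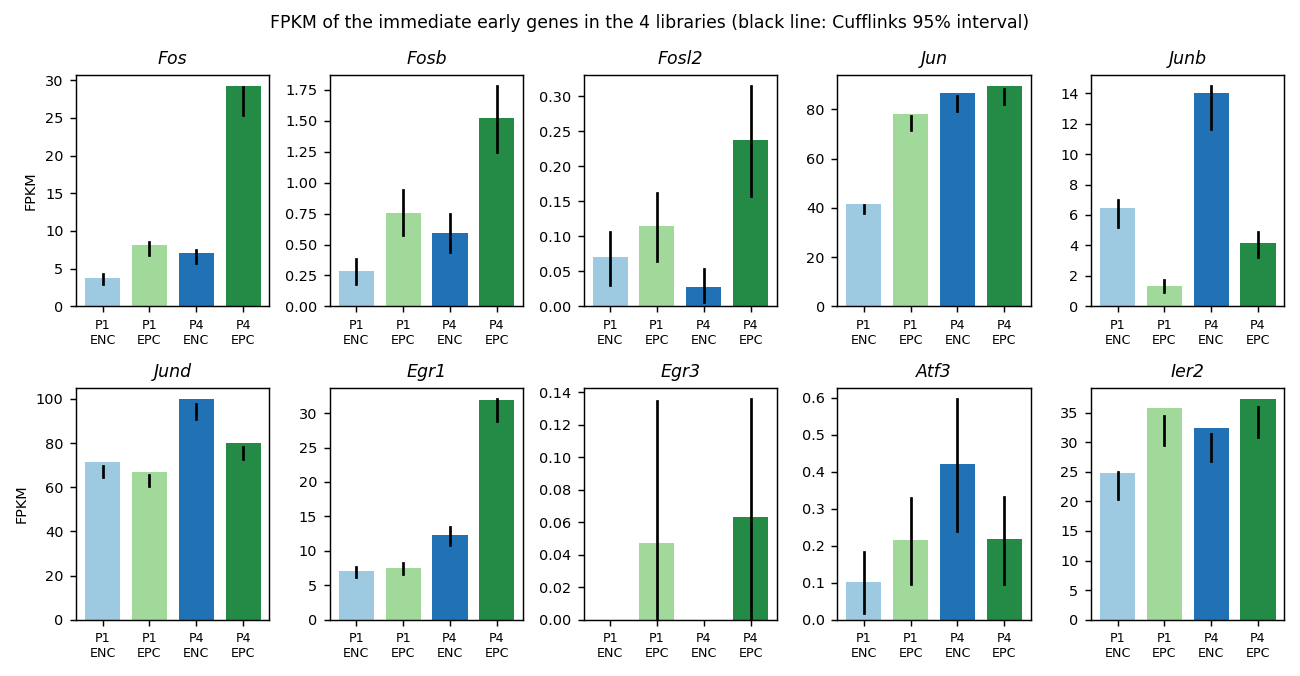
Bars give the FPKM of each of the 10 genes in the 4 libraries (light for P1, dark for P4, blue for pHes1_ENC and green for pHes1_EPC), and black lines give the Cufflinks 95% interval, which covers counting error only. Fos reached 29.3 FPKM and Egr1 31.9 FPKM in P4 pHes1_EPC, Junb was highest in P4 pHes1_ENC at 14.0 FPKM, and each panel has its own vertical scale.

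The labels of the fractions were checked against cell type markers. Hes1, the gene whose promoter drives EGFP, was at 16.6 and 105 FPKM in pHes1_ENC and pHes1_EPC at P1 and at 3.59 and 93.5 FPKM at P4. Of 14 genes that mark Müller glia and progenitors, 12 at P1 and 14 at P4 were more than 2-fold higher in pHes1_EPC, and their summed FPKM was 914, 2445, 432 and 3798 in P1 pHes1_ENC, P1 pHes1_EPC, P4 pHes1_ENC and P4 pHes1_EPC. Of 8 rod markers 7 and 8 were more than 2-fold lower, with sums of 560, 39.3, 3883 and 774 FPKM in the same order. The total FPKM of the genes analyzed ranged from 277433 in P1 pHes1_ENC to 372016 in P4 pHes1_EPC. Rescaling all libraries to the same total therefore lowers every log2 ratio of pHes1_EPC over pHes1_ENC by 0.29 at P4 and by 0.088 at P1, and the text says where this turns the direction of a gene. Because each library is a mixture of cells, more cells with an mRNA and more of the mRNA per cell cannot be told apart.

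The first question was how the immediate early genes differ between the EGFP-positive and EGFP-negative fractions within an age. A difference is the log2(FPKM + 1) of the first library less that of the second, and it was counted as past 2-fold above 1 or below -1. At P1 none of the 10 genes was past 2-fold higher in pHes1_EPC (Fos, at 0.96, came nearest) and 1, Junb, was lower, while 6.1% of all genes were higher and 6.79% lower. At P4 Fos and Egr1 were higher and Junb was lower, 2 and 1 of 10 genes, against 9.85% and 5.42% of all genes. Among genes with at least 1 FPKM in either library of a pair, which 6 of the 10 reached at P1 and 7 at P4, the shares higher and lower were 10.6% and 11.8% for P1 and 17.4% and 9.56% for P4. By the plain ratio of FPKM, which lets low genes count, 4 of the 10 were past 2-fold higher and 1 lower for P1, against 13.8% and 17.5% of all genes, and 5 were higher and 1 lower for P4, against 20.1% and 14.6%. The median difference of the 10 genes was 0.11 at P1 and 0.14 at P4, that of all genes was 0 at both ages, and that of genes with at least 1 FPKM in either library was 0.029 and 0.17. Of the 10 genes 8 were above 0 and 2 below in the P1 pair, and 7 above and 3 below in the P4 pair. Single genes ranged from -1.66 to 0.96 in the P1 pair and from -1.53 to 1.92 in the P4 pair.

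**Figure D2:**
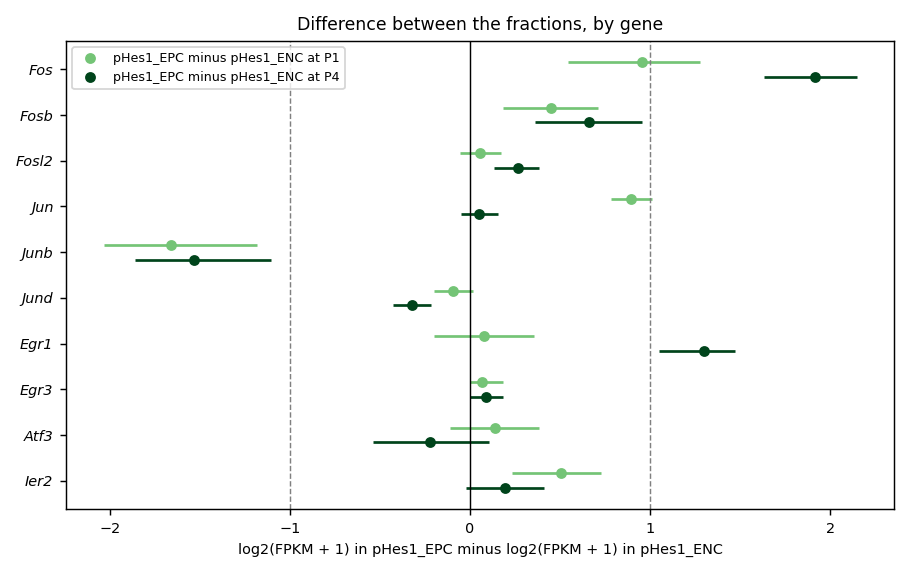
Points give log2(FPKM + 1) in pHes1_EPC less that in pHes1_ENC for each gene at P1 (light) and P4 (dark), horizontal lines give the range that the Cufflinks 95% intervals allow, and dashed lines mark 2-fold. Fos lies at 0.96 and 1.92, Egr1 at 0.077 and 1.30 and Jun at 0.90 and 0.051, and Junb is the only gene below -1, at -1.66 and -1.53.

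Fos encodes the partner that Jun proteins need for the strongest form of AP-1, and its mRNA is a standard mark of recent stimulation. Its gene line spans chr12:86814851-86818219 on the plus strand, with 4 exons, and the CArG box shown above lies upstream of it. Fos was at 3.71 (P1) and 7.02 (P4) FPKM in pHes1_ENC and at 8.15 (P1) and 29.3 (P4) FPKM in pHes1_EPC. It was therefore higher in the EGFP-positive library at both ages, and the P1 pHes1_EPC and P4 pHes1_ENC values, in the middle of this order, had overlapping intervals (6.76 to 8.58 and 5.78 to 7.51 FPKM). The ratio of pHes1_EPC to pHes1_ENC was 2.19 at P1, where the intervals allow 1.57 to 2.90, and reached 4.17 (3.37 to 5.03) at P4. On the log2(FPKM + 1) scale the differences were 0.96 and 1.92, so that Fos stood just under the 2-fold line at P1 and well past it at P4. Over all alternatives the P4 difference stayed between 1.64 and 2.04.

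Fosb, whose product pairs with Jun proteins as Fos does, showed the same order of libraries at a much lower level. Its line spans chr7:19888045-19895394 on the minus strand. It was at 0.285 (P1) and 0.594 (P4) FPKM in pHes1_ENC and at 0.757 (P1) and 1.52 (P4) FPKM in pHes1_EPC. The ratio of pHes1_EPC to pHes1_ENC, 2.66 (1.49 to 5.13) at P1, was 2.56 (1.66 to 4.08) at P4, while the differences on the log2(FPKM + 1) scale, 0.45 and 0.66, did not reach 2-fold because the added 1 outweighs such low values. With 0.1 added in its place they were 1.15 and 1.22, past 2-fold at both ages. Fosl2, a Fos-related antigen that lacks the strong activation domain of Fos, spans chr5:32438845-32460212 on the plus strand and was near the limit of detection. It was at 0.0707, 0.114, 0.0278 and 0.238 FPKM in P1 pHes1_ENC, P1 pHes1_EPC, P4 pHes1_ENC and P4 pHes1_EPC, and its intervals overlapped at P1 and not at P4. Of the summed FPKM of the 3 Fos-family members, Fos alone took 91.3%, 90.3%, 91.9% and 94.3% in that order, so the family sums of 4.07, 9.02, 7.64 and 31.0 FPKM followed Fos.

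The 3 Jun genes did not move together. At P1 Jun was higher and Junb lower in pHes1_EPC, and Jund was nearly equal. Jun encodes the most active Jun protein, a target of the JNK kinases that can pair with Fos or with itself. It is a gene of 1 exon at chr4:94715727-94718913 on the minus strand, with the cAMP response element variant shown above. Jun was at 41.6 (P1) and 86.5 (P4) FPKM in pHes1_ENC and at 78.3 (P1) and 89.7 (P4) FPKM in pHes1_EPC. The P1 pHes1_ENC library was low and the other 3 lay close together, with overlapping intervals between the P4 libraries (79.4 to 85.3 and 82.3 to 88.4 FPKM). The ratio of pHes1_EPC to pHes1_ENC fell from 1.88 (1.74 to 2.04) at P1 to 1.04 (0.965 to 1.11) at P4. The P4 difference of 0.051 had no stable direction, since it became -0.24 after rescaling to the same total, -0.15 with median-of-ratios scaling and -0.28 with quantile normalization, whereas the P1 difference of 0.90 stayed between 0.81 and 0.91.

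Junb encodes a weaker activator that can hold back Jun, and it was the one member lower in pHes1_EPC by more than 2-fold. It has 1 exon and spans chr8:87500808-87502647 on the minus strand. Junb was at 6.44 (P1) and 14.0 (P4) FPKM in pHes1_ENC and at 1.35 (P1) and 4.19 (P4) FPKM in pHes1_EPC. It was higher in the EGFP-negative library at each age, the reverse of Fos, and the intervals of the fractions did not overlap at either age. The ratio of pHes1_ENC to pHes1_EPC was 4.77 (3.01 to 7.34) for P1 and 3.35 (2.39 to 4.44) for P4, with log2 differences of -1.66 and -1.53. The summed FPKM of 5 erythrocyte markers, 137, 0.633, 329 and 5.98 in P1 pHes1_ENC, P1 pHes1_EPC, P4 pHes1_ENC and P4 pHes1_EPC, had the same order of libraries as Junb, and none of the 5 was listed at 0. The part of red blood cells in the Junb values was not tested. The order was not particular to erythrocyte markers. In the same library order, 6 cone markers summed to 237, 26.1, 737 and 233 FPKM. The sums were 514, 47.2, 847 and 301 FPKM for 7 bipolar markers, mostly Otx2. They were 70.1, 9.60, 71.2 and 17.0 FPKM for 7 amacrine and horizontal markers. All of these sums had the order of Junb. The rod markers, with the sums given above, were also higher in pHes1_ENC at both ages. The part of these other cells was not tested either.

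Jund, the Jun gene that most cells express steadily and that is least dependent on stimulation, spans chr8:73221638-73224515 on the plus strand. It was at 71.2 (P1) and 100.03 (P4) FPKM in pHes1_ENC and at 66.8 (P1) and 79.9 (P4) FPKM in pHes1_EPC. The fractions were close together, with ratios of pHes1_EPC to pHes1_ENC of 0.937 (0.868 to 1.01) for P1 and 0.799 (0.742 to 0.859) for P4, and intervals that overlapped at P1 only. The makeup of the Jun family thus differed between libraries. Jund held 59.7% of its summed FPKM in P1 pHes1_ENC and 45.6% in P1 pHes1_EPC, Jun held 34.9% and 53.5%, and Junb held 5.40% and 0.922%. At P4 the shares in pHes1_ENC and pHes1_EPC were 49.9% and 46.0% for Jund, 43.1% and 51.6% for Jun, and 6.99% and 2.41% for Junb. The Jun family exceeded the Fos family in summed FPKM by 29.3 (P1) and 26.2 (P4) times in pHes1_ENC and by 16.2 (P1) and 5.60 (P4) times in pHes1_EPC, a ratio within each library that no rescaling of a whole library can alter. The library kit does not keep strand, and genes on the opposite strand overlap Jun (BC042782), Jund (Gm11175) and Egr1 (Gm17507), so reads of each pair cannot be told apart.

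Egr1 encodes a zinc finger factor that growth factor and synaptic signals induce, often together with Fos. Its line lies at chr18:35020861-35024610 on the plus strand and has 2 exons. Egr1 was at 7.11 (P1) and 12.3 (P4) FPKM in pHes1_ENC and at 7.56 (P1) and 31.9 (P4) FPKM in pHes1_EPC. The intervals of the fractions overlapped at P1 and stood apart at P4. The ratio of pHes1_EPC to pHes1_ENC went from 1.06 (0.854 to 1.32) at P1 to 2.58 (2.15 to 2.94) at P4. On the log2(FPKM + 1) scale the P4 difference of 1.30 stayed between 1.02 and 1.36 over all alternatives. The lowest value, just past 2-fold, came after rescaling to the same total. Egr3, a relative of Egr1 known from muscle spindles and neurons, lies at chr14:70477252-70479964 on the plus strand. It was listed at 0 in both pHes1_ENC libraries and at 0.0471 and 0.0635 FPKM in P1 and P4 pHes1_EPC, where the intervals reached down to 0, so that no difference was detectable at this depth.

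Atf3 encodes a stress-induced factor that pairs with Jun proteins, and it is often raised in injured neurons. Its line at chr1:192994176-193007212 on the minus strand was at 0.103, 0.215, 0.421 and 0.217 FPKM in P1 pHes1_ENC, P1 pHes1_EPC, P4 pHes1_ENC and P4 pHes1_EPC. All 4 libraries were low, and the intervals of the fractions overlapped at both ages. Ier2, which encodes a small nuclear protein first found as an immediate early gene of growth factors, lies at chr8:87185230-87186751 on the minus strand with 1 exon. Ier2 was at 24.8, 35.7, 32.4 and 37.3 FPKM in the same order. It was higher in pHes1_EPC at P1 with a ratio of 1.44 (1.18 to 1.69), and the P4 ratio of 1.15 (0.985 to 1.34) had no stable direction, since the log2 difference of 0.20 became -0.087 after rescaling to the same total.

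**Figure D3:**
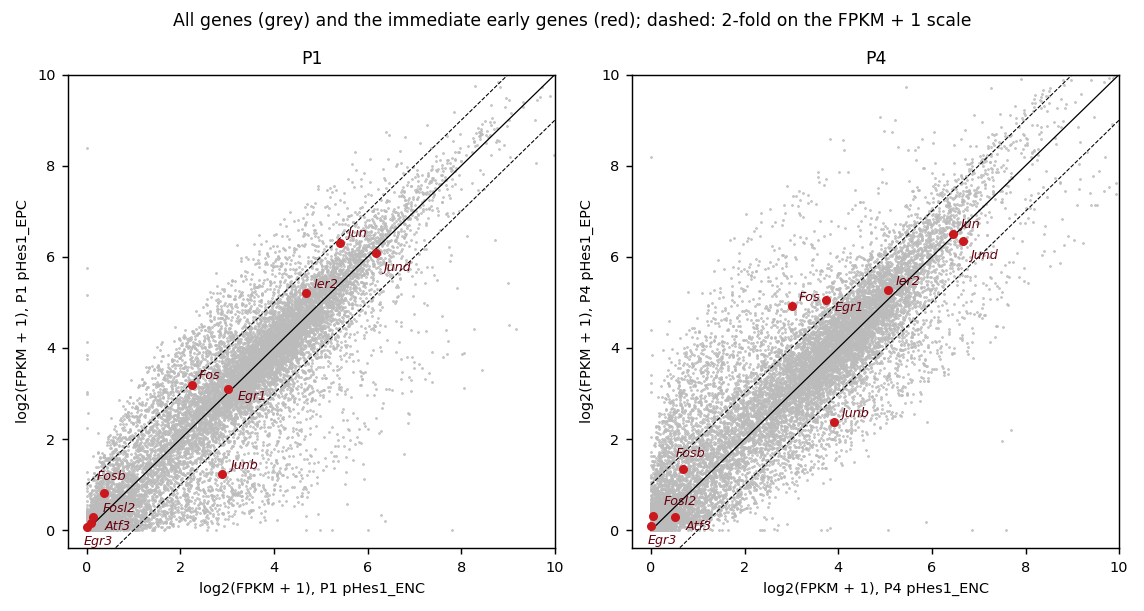
Each grey point is a gene, placed by log2(FPKM + 1) in pHes1_ENC (horizontal) and pHes1_EPC (vertical) at P1 (left) and P4 (right), and red points are the 10 immediate early genes, with genes beyond the axes not drawn. The solid line marks equal values and the dashed lines 2-fold, and only Junb at P1 and Fos, Egr1 and Junb at P4 lie past a dashed line.

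The second question was how the genes changed from P1 to P4 within a fraction, and these comparisons use the same 4 libraries as those above. In pHes1_ENC 2 of the 10 genes, Jun and Junb, were past 2-fold higher at P4 and none was lower, while 2.77% of all genes were higher and 5.94% lower. In pHes1_EPC 3 genes, Egr1, Fos and Junb, were past 2-fold higher and none was lower, while 4.17% of all genes were higher and 2.57% lower. The change of Junb in pHes1_EPC, 1.14, fell under the 2-fold line after rescaling to the same total, at 0.89, and with quantile normalization, at 0.97. Of genes with at least 1 FPKM in either library, 4.88% were higher and 10.5% lower in pHes1_ENC, and 7.43% and 4.57% in pHes1_EPC. By the plain ratio 4 of the 10 genes were higher and 1 lower in pHes1_ENC, against 8.7% and 18.4% of all genes, and 5 were higher and none lower in pHes1_EPC, against 13.8% and 10.2%. The median change of the 10 genes was 0.43 in pHes1_ENC and 0.22 in pHes1_EPC. That of all genes was 0 in both, and that of genes with at least 1 FPKM in either library was 0.0039 in pHes1_ENC and 0.19 in pHes1_EPC. In pHes1_ENC 8 genes had higher, 1 lower and 1 equal values at P4, and in pHes1_EPC all 10 had higher values as deposited, although the changes of Jun, Jund, Atf3 and Ier2 there fell below 0 under other scalings. Rescaling to the same total lowers the log2 ratios by 0.13 in pHes1_ENC and by 0.34 in pHes1_EPC.

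**Figure D4:**
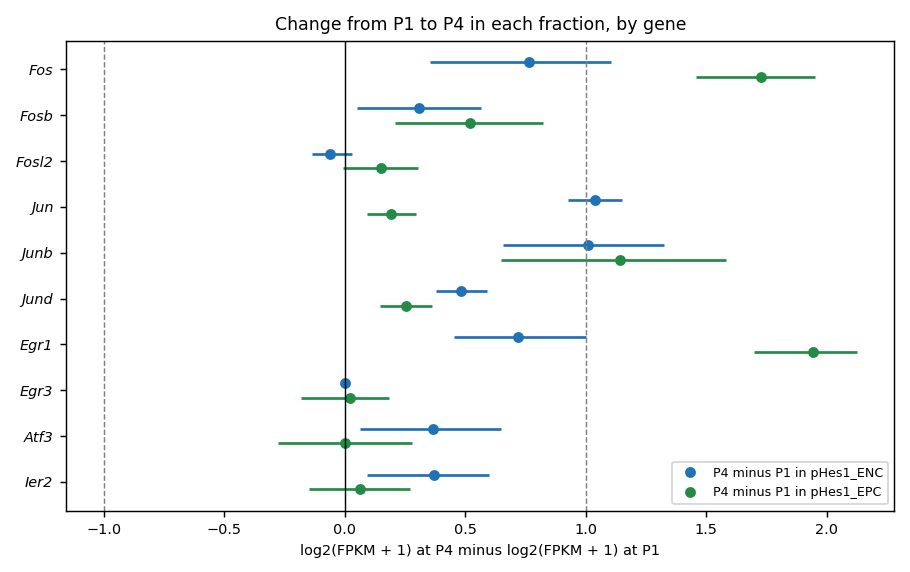
Points give log2(FPKM + 1) at P4 less that at P1 for each gene in pHes1_ENC (blue) and pHes1_EPC (green), horizontal lines give the range that the Cufflinks 95% intervals allow, and dashed lines mark 2-fold. Egr1 and Fos lie at 1.94 and 1.73 in pHes1_EPC and at 0.72 and 0.77 in pHes1_ENC, and Jun lies at 1.04 in pHes1_ENC and 0.19 in pHes1_EPC.

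Egr1 and Fos had the largest changes with age of the 10 genes in pHes1_EPC. Egr1 went from 7.56 to 31.9 FPKM, a ratio of 4.22 (3.52 to 4.87), and Fos from 8.15 to 29.3 FPKM, a ratio of 3.59 (2.95 to 4.30). In pHes1_ENC the same genes had ratios of 1.74 (1.42 to 2.17) and 1.89 (1.34 to 2.54). The log2 change in pHes1_EPC exceeded that in pHes1_ENC by 1.22 for Egr1 and by 0.96 for Fos, and it was smaller by 0.84 for Jun (a value of -0.84). For Jun the ratio was 2.08 (1.92 to 2.25) in pHes1_ENC and 1.15 (1.07 to 1.23) in pHes1_EPC, and the log2 change in pHes1_EPC became -0.14 after rescaling to the same total. At P4 the fractions thus lay closer together in Jun and further apart in Fos and Egr1 than at P1. Junb was higher at P4 in both fractions, with ratios of 2.17 (1.66 to 2.80) in pHes1_ENC and 3.10 (1.90 to 5.09) in pHes1_EPC. The changes of Jun and Junb in pHes1_ENC, 1.04 and 1.01 on the log2 scale, were just past the 2-fold line, and after rescaling to the same total neither was.

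Markers of cells other than Müller glia moved with some of these values. The summed FPKM of 7 pigment epithelium markers was 5.15, 3.72, 7.60 and 82.8 in P1 pHes1_ENC, P1 pHes1_EPC, P4 pHes1_ENC and P4 pHes1_EPC, led by Pmel at 36.5 FPKM in the last, the library in which Fos and Egr1 were also highest. In that library 5 of the 7 reached 1 FPKM, 4 were past 2-fold higher than in P4 pHes1_ENC, and Rpe65 and Ttr, listed at 0 in P1 pHes1_ENC, were above 0. The 10 microglia markers summed to 2.67, 14.5, 8.72 and 13.8 FPKM in the same order, with 4 at P1 and none at P4 past 2-fold higher in pHes1_EPC and no gene listed at 0. The 10 endothelial and mural markers summed to 67.4, 217, 18.4 and 199.8 FPKM, and 46.9, 209, 12.0 and 189 FPKM of this was Kdr, while Pecam1 and Tek did not exceed 0.142 FPKM in any library and Cdh5 and Emcn were listed at 0 in both P4 libraries. Of these 10, 1 was higher and 1 lower in pHes1_EPC at P1, and 3 were higher and none lower at P4 (Kdr, Flt1 and Pdgfrb). Beside the counts of these lists, 6.1% of all genes were higher and 6.79% lower at P1, and 9.85% and 5.42% at P4. Flt1 was at 0.0658, 0.715, 0.110 and 1.41 FPKM, the order of libraries seen for Fos, Pdgfrb at 0.670, 1.68, 0.0829 and 1.52 FPKM, and Cldn5 at 16.3, 3.49, 2.59 and 4.06 FPKM. The 5 astrocyte markers summed to 3.89, 4.98, 7.48 and 15.2 FPKM, and 2.66, 3.78, 4.11 and 11.1 FPKM of this was Pdgfra. At P4 Gfap was at 1.21 and 0.860 FPKM and Pax2 at 1.03 and 0.954 FPKM in pHes1_ENC and pHes1_EPC, lower in the latter. S100b, at 1.02 and 1.16 FPKM, and Aldh1l1, at 0.109 and 1.16 FPKM, were higher there. The 6 cone markers summed to 237, 26.1, 737 and 233 FPKM, most of it Gngt2, and the 8 rod markers to 560, 39.3, 3883 and 774 FPKM. Both sums were higher at P4 than at P1 in each fraction. The part of these cells in the Fos and Egr1 values was not tested.

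The mRNA levels of known regulators of these genes were examined as lists. Beside the counts below, 6.1% of all genes were past 2-fold higher and 6.79% lower in pHes1_EPC at P1, and 9.85% and 5.42% at P4. Of 13 serum response factor, ternary complex factor and CREB genes, none at P1 was past 2-fold in either direction, and at P4 1 was higher, Elk3 at 1.54 and 4.71 FPKM in pHes1_ENC and pHes1_EPC, and 2 were lower. The 2 lower ones were Elk1, an ETS partner of serum response factor, with a log2 difference of -1.26, and Crtc3, a coactivator of CREB, with -1.18. Srf itself was at 12.3, 8.73, 11.3 and 9.17 FPKM in P1 pHes1_ENC, P1 pHes1_EPC, P4 pHes1_ENC and P4 pHes1_EPC. These levels do not measure the activity of the proteins, and the part of the regulators in the Fos values was not tested. Of 21 MAP kinase genes 1 was higher and 1 lower at each age. At P1 these were Mapk12 and Mapk10, with log2 differences of 1.19 and -1.69, and at P4 Mapk14, which encodes p38 alpha, at 13.7 and 30.5 FPKM in pHes1_ENC and pHes1_EPC, and Map2k7, a kinase of JNK, at 48.1 and 23.4 FPKM. The median differences were -0.17 and -0.27 for the first list and -0.22 and 0.074 for the MAP kinases at P1 and P4.

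The MAP kinase phosphatases, which switch these kinases off and several of which are early genes themselves, were split between the fractions. Of 11 genes 2 were higher and 3 lower in pHes1_EPC at P1, and 3 higher and 3 lower at P4. Of all genes, 6.1% were higher and 6.79% lower at P1, and 9.85% and 5.42% at P4. Dusp6, the phosphatase of ERK, was at 11.2, 35.6, 4.51 and 21.8 FPKM in P1 pHes1_ENC, P1 pHes1_EPC, P4 pHes1_ENC and P4 pHes1_EPC, and Dusp16, which acts on JNK, was at 11.8, 57.2, 7.54 and 60.5 FPKM. Both were higher in pHes1_EPC at both ages, with log2 differences of 1.58 and 2.05 for Dusp6 and of 2.19 and 2.85 for Dusp16. Dusp10 was higher at P4 alone, by 2.31. The opposite order was seen for Dusp5, a nuclear phosphatase of ERK, at 16.5, 1.40, 32.2 and 6.02 FPKM, and for Dusp8 at 19.1, 6.31, 46.6 and 11.8 FPKM, while Dusp4 was past 2-fold lower at P1 alone and Dusp7 at P4 alone. Dusp1, an immediate early gene that responds to stress, was nearly level at 15.9, 15.4, 15.2 and 15.9 FPKM in the library order given for Dusp6. The part of stress in the values of these genes was not tested.

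A list of 38 other immediate early genes held members that were past 2-fold in each direction between the fractions. At P1 6 were higher and 6 lower in pHes1_EPC, where 6.1% and 6.79% of all genes were, and at P4 10 were higher and 4 lower, beside 9.85% and 5.42% of all genes, with medians of -0.080 and 0.15. From P1 to P4, 2 were higher and 5 lower in pHes1_ENC, beside 2.77% and 5.94% of all genes, and 4 were higher and none lower in pHes1_EPC, beside 4.17% and 2.57%. Zfp36l1, which encodes an RNA-binding protein that promotes mRNA decay, was at 35.4, 181, 7.61 and 160 FPKM in P1 pHes1_ENC, P1 pHes1_EPC, P4 pHes1_ENC and P4 pHes1_EPC, with log2 differences of 2.33 and 4.23. Klf6, a zinc finger factor, was at 9.61, 20.8, 6.93 and 17.4 FPKM, with differences of 1.04 and 1.22. Both were higher in the EGFP-positive library, as Fos was, but unlike Fos neither was highest in P4 pHes1_EPC. Cyr61 and Bhlhe40, at lower levels, were past 2-fold higher in pHes1_EPC at both ages and highest in P4 pHes1_EPC, at 0.518, 3.86, 0.495 and 7.70 FPKM and at 0.600, 3.13, 0.324 and 3.40 FPKM. Ier3, an early gene linked to cell survival, was at 13.7, 2.71, 67.7 and 14.4 FPKM, and Nfkbia, the inhibitor of NF-kappaB, was at 22.8, 7.84, 50.9 and 15.7 FPKM. The last pair was lower in pHes1_EPC at both ages, with differences of -1.99 and -2.15 for Ier3 and of -1.43 and -1.63 for Nfkbia, the direction of Junb.

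**Figure D5:**
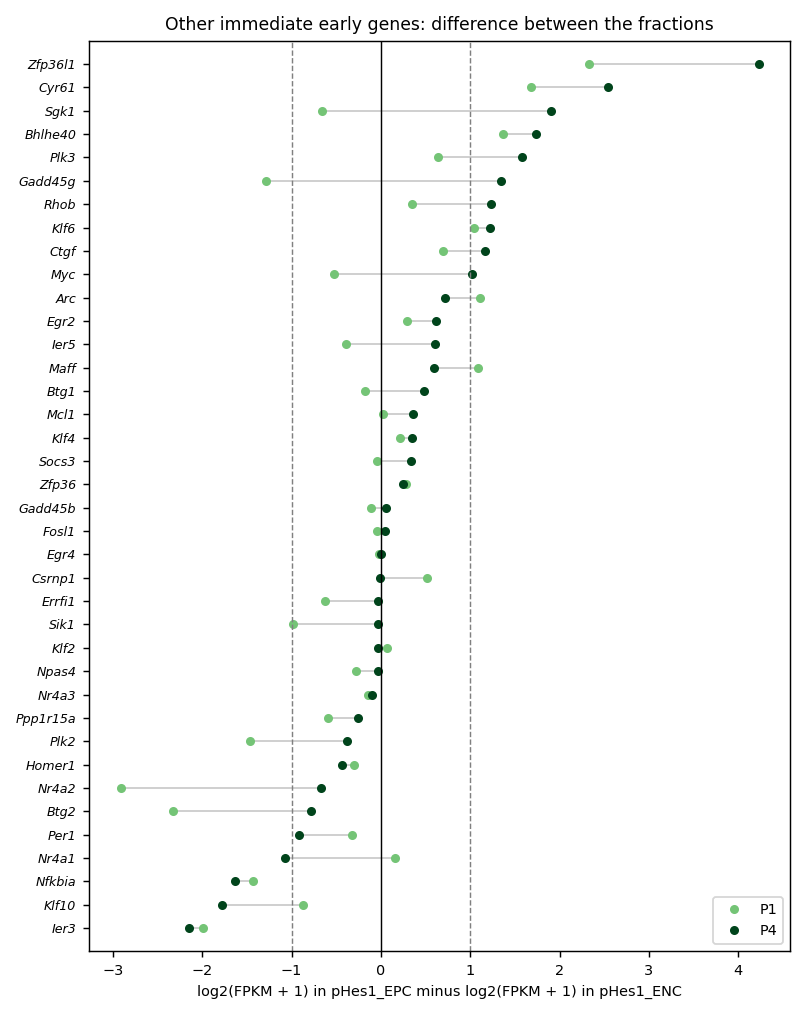
Each line joins the P1 (light) and P4 (dark) difference of 1 of 38 other immediate early genes, as log2(FPKM + 1) in pHes1_EPC less that in pHes1_ENC, ordered by the P4 value, with dashed lines at 2-fold. Values run from -2.91 to 2.33 at P1 and from -2.15 to 4.23 at P4, and Zfp36l1 at the top and Ier3 at the bottom are past 2-fold at both ages.

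Heat shock genes, which also respond to the handling of cells, were examined as a list of 16. None was past 2-fold at P1, and at P4 3 were higher in pHes1_EPC (Hspe1, Hsph1 and Bag3) and none lower, with medians of 0.067 and 0.20. Of all genes, 6.1% were higher and 6.79% lower at P1, and 9.85% and 5.42% at P4. Of the 16 genes, 15 reached 1 FPKM in either library at P4, and 17.4% of all such genes were past 2-fold higher. Hspe1 and Hsph1, which encode mitochondrial and cytosolic chaperones, were at 35.7 and 91.9 FPKM and at 21.5 and 48.3 FPKM in P4 pHes1_ENC and pHes1_EPC. Bag3, a cochaperone of Hsp70, was at 0.609 (P1) and 0.197 (P4) FPKM in pHes1_ENC and at 1.99 (P1) and 2.48 (P4) FPKM in pHes1_EPC. Hspa1a and Hspa1b, which encode Hsp70 proteins and share most of their sequence so that reads can be split between them, had lower values in the EGFP-positive library at both ages. Hspa1a was at 0.972 (P1) and 1.61 (P4) FPKM in pHes1_ENC and at 0.414 (P1) and 0.623 (P4) FPKM in pHes1_EPC, and Hspa1b at 1.18 and 2.15 FPKM and at 0.565 and 0.879 FPKM. Of 10 ribosomal and housekeeping genes 2 at P1 (Ppia and Pgk1) and 4 at P4 (these, Gapdh and Rplp0) were past 2-fold higher in pHes1_EPC and none was lower. Their median differences were 0.21 at P1 and 0.82 at P4, and the same shares of all genes apply. Among genes for AP-1 partners and Egr corepressors, Nab2, a corepressor that Egr1 induces and that holds Egr1 back, was at 2.89, 5.44, 1.05 and 3.87 FPKM in P1 pHes1_ENC, P1 pHes1_EPC, P4 pHes1_ENC and P4 pHes1_EPC, so that unlike Egr1 it was not highest in the last. Nrl, the leucine zipper factor of rods, was past 2-fold lower in pHes1_EPC at both ages, at 164, 8.51, 875 and 184 FPKM in P1 pHes1_ENC, P1 pHes1_EPC, P4 pHes1_ENC and P4 pHes1_EPC.

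The genes whose profiles were most like those of Fos, Jun and Egr1 were sought among 8398 genes outside the 10. Each of these had at least 10 FPKM in at least 1 library. Likeness was the Euclidean distance between log2(FPKM + 1) values centered on their mean over the 4 libraries. With 4 libraries such a distance describes the order and size of 4 values and no more. Nearest to Fos were Tnfrsf12a, a receptor of the tumor necrosis factor family, Fbxo2 and Fam162a, at distances of 0.23, 0.23 and 0.42, and 5 genes lay within 0.5. Tnfrsf12a was at 0.955, 2.92, 1.79 and 10.8 FPKM in P1 pHes1_ENC, P1 pHes1_EPC, P4 pHes1_ENC and P4 pHes1_EPC, the same order of libraries as Fos. Tnfrsf12a, Fbxo2 and Spa17 reached 10 FPKM in P4 pHes1_EPC alone, the library where Fos and Egr1 were highest. The limit of 10 FPKM admitted them only through that library, so their likeness is in part built in. Nearest to Egr1 were Gm12191, LOC624853 and Spa17, at 0.27, 0.31 and 0.37, and 9 genes lay within 0.5. Jun had 128 genes within 0.5, the nearest being Igsf11, Prr7 and Ifngr1 at 0.10, 0.16 and 0.21. Within the 10 genes, Fos and Egr1 were 0.76 apart and Fos and Junb 3.07 apart, the latter being the largest distance of any pair.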

How the data were processed

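Gene FPKM were deposited by the authors, who mapped 36-base reads, sequenced from one end, with TopHat2 2.0.8b on NCBI37/mm9 (up to 50 positions for a read) and ran Cufflinks 2.1.1. The submitters' processing notes also name bcl2fastq 1.8.4. FPKM are scaled by length and library size, and they were not rescaled. Reads and counts were not used here, so depth is known only through the Cufflinks 95% intervals, from which the ranges of ratios were taken.

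Python 3.11.15, numpy 2.4.6, pandas 2.3.3 and matplotlib 3.10.9 were used. Of 23021 gene lines, 787 small RNA lines were left out, and for symbols with several lines the highest was kept, which gave 21828 genes. A pseudocount of 1 was added before log2, which understates changes of low genes. Libraries were grouped by fraction and age, 1 in each of 4 groups, and compared in 4 pairs without a test. Outside the 10 genes, each regulator list names up to 5 genes with at least 10 FPKM in a library and past 2-fold in either direction at both ages, or failing that up to 3 past it at 1 age. Genes outside this rule (Srf, Elk3, Mapk10, Mapk12, Dusp1, Dusp4, Dusp7, Dusp10, Nab2, Bag3, Hspa1a, Hspa1b, Gapdh, Rplp0, Gadd45g, Btg2, Sgk1, Nr4a2, Myc, Nr4a1, Cyr61, Bhlhe40 and single markers) were named after their values had been seen. Promoters were read from the NCBI37/mm9 reference with GENCODE strands. The members and lists were chosen with earlier results of these data known. Counts over the AP-1 partner list are not reported here. The procedure was tested on simulated data with counting error only, and changes were placed in genes with at least 10 FPKM. The simulation held no spread between animals or sorts, so it cannot show how far calls from single libraries would repeat. Alternatives were a pseudocount of 0.1, a ratio past 2 without one, a minimum of 1 FPKM, 3 other scalings, small RNAs kept, status OK throughout, intervals that do not overlap, and lines summed.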

Additional observations from a re-analysis of the deposited data

Results flagged for a closer look

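For 2 genes the sign of the difference was opposite in the groups compared, with 1 library on each side, and the difference between the groups was not tested. Fosl2 had a log2(FPKM + 1) change from P1 to P4 of -0.059 in pHes1_ENC and of 0.15 in pHes1_EPC, on FPKM between 0.0278 and 0.238. Atf3 had a log2(FPKM + 1) difference of pHes1_EPC less pHes1_ENC of 0.14 at P1 and of -0.22 at P4, on FPKM between 0.103 and 0.421. Both genes rest on few reads, about 7 to 36 for Fosl2 and 6 to 22 for Atf3, as far as the Cufflinks intervals show.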

How the results depend on the processing

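No paired analysis was possible because each group has 1 library. No library could be left out for the same reason. The counts of the 10 genes past 2-fold depended on how low values were treated and on scaling. No share of all genes was counted for the pseudocount of 0.1 or the other scalings. At P1 the count higher in pHes1_EPC, 0 as reported, was 2 with a pseudocount of 0.1 and 4 with a ratio past 2 and no pseudocount. It was 1 with quantile normalization and 2 with a 1.5-fold limit, which was chosen after seeing the data. In this P1 pair 11.6% of all genes were higher by that limit. At P4 the 2 higher genes became 4 with a pseudocount of 0.1 and 5 with the ratio. The 2 genes higher at P4 in pHes1_ENC became 4 with the ratio, 0 after rescaling to the same total and 1 with quantile normalization. They became 4 with the 1.5-fold limit, which 6.98% of all genes passed in that pair, and the ratio added 1 lower gene. The 3 genes higher at P4 in pHes1_EPC became 5 with the ratio and 2 both after rescaling to the same total and with quantile normalization, where Junb fell to 0.89 and 0.97. The lower counts at P1 and P4, 1 each, were the same under every alternative. Of the 40 differences of single genes, 33 kept their direction under every alternative, and the 7 others were Jun and Ier2 between the fractions at P4, Jun, Jund, Atf3 and Ier2 with age in pHes1_EPC, and Egr3 with age in pHes1_ENC, which was 0 throughout. Only the 3 other scalings could turn a direction. Keeping small RNAs, requiring status OK and summing lines left all 40 differences as they were, and a pseudocount of 0.1 changes size but not sign. Lists of other genes were counted on the deposited scale only. With 1 library in each group and no counts, the spread between animals and sorts is unknown, and differences of Fosl2, Egr3 and Atf3 were not detectable at this depth, except where their intervals did not overlap.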

Other observations

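Among the 38 other immediate early genes, Gadd45g and Sgk1 changed side between the ages, and they were not the only ones. Myc moved from -0.52 (P1) to 1.02 (P4) in log2 difference, pHes1_EPC less pHes1_ENC, and Nr4a1 from 0.15 to -1.07. Further genes of the list changed side with P4 values short of 2-fold. Btg2 and Nr4a2 were lower in pHes1_EPC at both ages by unequal amounts. Gadd45g, Sgk1, Myc, Nr4a1, Btg2 and Nr4a2 were picked after their values had been seen. Gadd45g, a growth arrest gene of developing neurons, was at 68.3 (P1) and 78.9 (P4) FPKM in pHes1_ENC and at 27.3 (P1) and 202 (P4) FPKM in pHes1_EPC, so its log2 difference between the fractions went from -1.29 to 1.34. Sgk1, a kinase gene that serum and steroids induce, was at 2.28 and 0.523 FPKM in pHes1_ENC and at 1.08 and 4.69 FPKM in pHes1_EPC, with differences of -0.66 and 1.90. Btg2, which slows cell division, was at 152 and 199 FPKM in pHes1_ENC and at 29.6 and 115 FPKM in pHes1_EPC, and its difference shrank from -2.33 to -0.78. Nr4a2, an orphan nuclear receptor gene, was at 10.6 FPKM in P1 pHes1_ENC and between 0.369 and 1.18 FPKM in the other libraries. The changes between ages of these differences were not tested.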
